A study of Brassica napus with 45 samples.

Results

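Leaf transcripts of overexpression line 2 of BnNAC038 were compared with those of wild type after both had been given polyethylene glycol (PEG). The comparison used 6 of the 45 libraries of the series, 3 of line 2 and 3 of the wild type of the same experiment, chosen by the genotype and treatment in the sample titles. Of 100919 genes listed for that experiment, 41796 had a level of at least 1 TPM (a gene's share of all transcripts, corrected for transcript length and scaled to the same total in every library) in at least 3 of these 6 libraries and were tested. The series addressed how BnNAC038, a transcription factor of rapeseed (Brassica napus), affects the balance of drought response and growth. Its overexpression experiment held 27 libraries in groups of 3, from wild type and from lines 1 and 2. Its knockout experiment held 18, from another wild type and from a BnNAC038 knockout line.

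All groups were leaves of seedlings raised in Hoagland's solution, with 16 h of light in a day and a temperature of 25 °C. The groups compared here were wild type and line 2 after 20% PEG for 6 h, both genotypes without treatment, and line 1 after PEG. From the knockout experiment, PEG-treated, ABA-treated (50 µM abscisic acid for 3 h) and untreated libraries were used. Untreated line 1 and the ABA-treated libraries (also 50 µM for 3 h) of wild type and lines 1 and 2 entered the shared estimate of the spread. Levels with ABA are given for some genes of wild type and line 2. Each overexpression line is a single line, and the promoter that drives BnNAC038 in it is not given in the sources used here. For line 2 the genotype field names a NAC gene with a different number for each library, whereas every title names BnNAC038, and the titles were followed. Replicates are described as biological without a word on whether they were separate plants, so p-values measure the spread between these libraries. The identifiers in the table are not paired with gene names, so BnNAC038 itself, leaf markers and named stress genes were not analysed here. Genes are therefore given by identifier, which holds the subgenome and chromosome (A01 to A10, C01 to C09) and a number that runs along the chromosome.

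NAC proteins are plant transcription factors that bind DNA through a conserved domain at their amino end, and several of them in Arabidopsis are switched on by drought and act with the hormone abscisic acid. PEG in the medium lowers the water potential around the roots without entering cells readily, so it imitates drought, and the leaf answers with abscisic acid, closed stomata and a broad change of transcripts. Rapeseed is an allotetraploid of Brassica rapa (A subgenome) and Brassica oleracea (C subgenome), and most of its genes have a near-identical counterpart in the other subgenome. The level of any single copy is therefore uncertain, because the authors' counting had to assign reads that fit both copies. In leaf RNA, fewer cells of a type and less RNA per cell cannot be told apart.

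The read depth of the libraries is unknown, because the table holds no read numbers. Between 40237 and 41754 genes reached 1 TPM in the wild type PEG libraries and between 40404 and 40943 in those of line 2. Line 2 was the more uniform group. Its 3 libraries correlated with each other across genes at 0.981 to 0.983 on the log2(TPM + 1) scale, the wild type libraries at 0.951 to 0.973, and libraries of the different genotypes at 0.925 to 0.956. The median standard deviation of a gene within the group was 0.13 in line 2 and 0.21 in wild type on that log2 scale (n = 3 each). The first principal component, with 54.5% of the variance, separated the genotypes, and the second, with 19.2%, set wild type replicate 3 (0.82) against wild type replicate 2 (-0.52). Outside the 6 libraries, those labelled wild type ABA replicates 2 and 3 stood apart from replicate 1: genes listed at 0 in the other wild type libraries were present in them, such as BnaA10G0187900ZS at 0, 26.0 and 21.7 TPM in the 3 libraries. They enter the tests below only through the shared estimate of the spread, and counts without the ABA libraries are given beside the main ones.

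A total of 4930 genes, 11.8% of those tested, were called different between line 2 and wild type with PEG (limma on log2(TPM + 1), Benjamini-Hochberg adjusted p under 0.05, spread shared by all 27 libraries). Of these, 2572 genes (6.15%) were higher in line 2 and 2358 (5.64%) were lower. The difference reached 2-fold in 1461 genes, with 736 higher and 725 lower, and at least 8-fold in 54 higher and 44 lower genes. The median size of a called difference was 0.73 on the log2 scale, and the median over all tested genes was 0.02. A gene was called more often the more abundant it was: 9.58% of the genes under 2 TPM, 14.0% of those at 10 to 50 TPM and 20.2% of the 648 genes at 200 TPM or more. In 4620 of the called genes (93.7%) the values of the genotypes did not overlap, as in 25.2% of all tested genes.

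The number of calls depended on how the spread was estimated and on single libraries. A fit of the 6 libraries alone called 1939 genes, of which 1834 were among the 4930, and a fit without the ABA libraries called 3583. Without line 2 replicate 1 the count was 2951, without wild type replicate 2 it was 3038, and without wild type replicate 3 it was 7514. A core of 2219 genes, 1258 higher and 961 lower, was called in the full fit and in each of the 6 fits that left out a PEG library of line 2 or wild type, and 1589 of them were called in the fit of 6 libraries too. Of this core, 1147 genes differed by at least 2-fold.

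Among the genes with the largest differences, some were listed at 0 in one of the genotypes compared. BnaA10G0187900ZS was listed at 0 in all 3 wild type PEG libraries and reached 72.5, 81.4 and 79.1 TPM in line 2 (limma adjusted p = 5.06e-07). It was present to the same order in line 2 without treatment, at 59.8, 66.1 and 57.8 TPM, and listed at 0 in untreated wild type. BnaA03G0111500ZS was likewise listed at 0 in wild type and stood at 51.5, 35.7 and 68.5 TPM in line 2 with PEG (adjusted p = 1.56e-14). Without treatment it was listed at 0 in all libraries of both genotypes, so that of these 4 groups only line 2 with PEG had a level above 0.

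Among the lower genes, BnaA04G0023300ZS fell from 529, 586 and 599 TPM in wild type to 4.10, 3.13 and 2.79 TPM in line 2 (log2 difference -7.05, SE 0.24, adjusted p = 2.33e-15). The same gap stood in untreated leaves, with 426, 458 and 426 TPM in wild type and at most 0.625 TPM in line 2. BnaC04G0180100ZS, at 59.0, 92.5 and 99.7 TPM in wild type with PEG, was listed at 0 in all 3 line 2 libraries (adjusted p = 1.71e-14) and in untreated line 2. Line 1 with PEG held each of these 4 genes on the side of line 2: 78.7 to 89.0 TPM for BnaA10G0187900ZS, 20.9 to 29.0 TPM for BnaA03G0111500ZS, 1.60 to 4.19 TPM for BnaA04G0023300ZS, and 0 for BnaC04G0180100ZS.

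**Figure D1:**
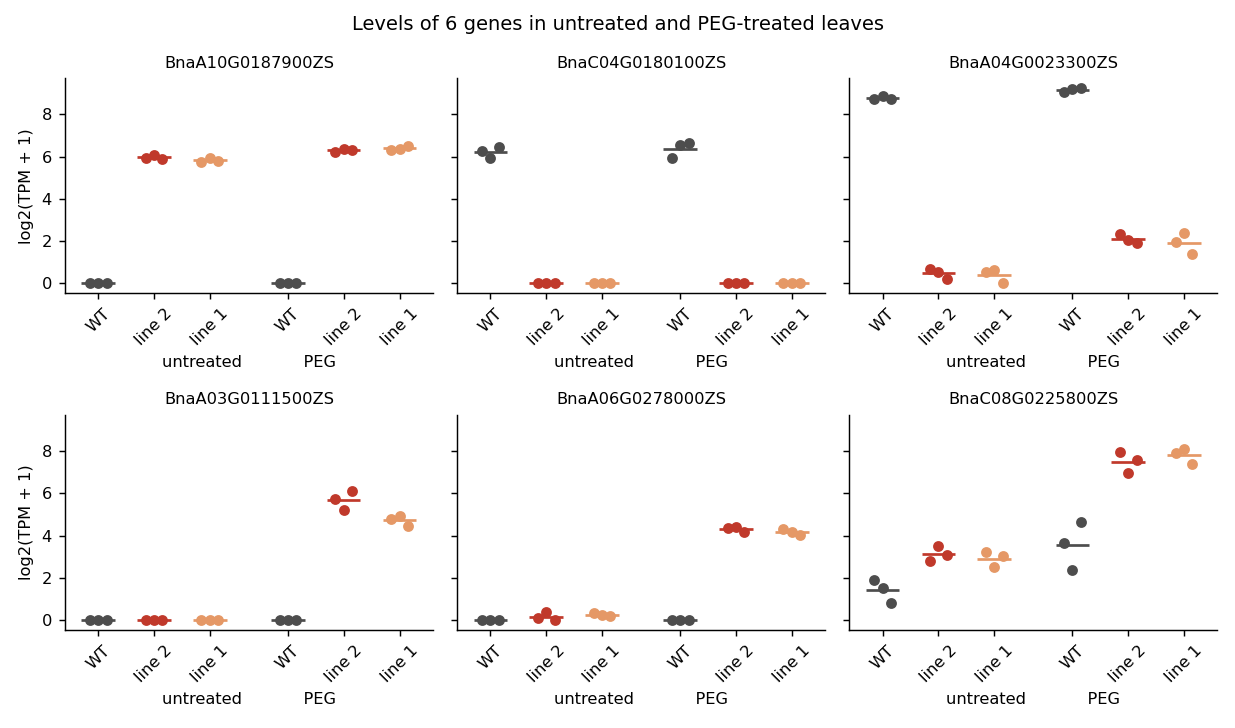
Levels of 6 genes as log2(TPM + 1) in wild type (WT), line 2 and line 1, untreated and with PEG; each point is a library and each bar the mean of 3. In both conditions BnaA10G0187900ZS is at 0 in wild type and BnaC04G0180100ZS at 0 in lines 1 and 2. Among the groups shown, BnaA03G0111500ZS and BnaA06G0278000ZS rise only in the PEG-treated lines. ABA-treated libraries are not shown.

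By a rule of presence and absence (under 0.5 TPM in all 3 libraries of a genotype and at least 5 TPM in all 3 of the other), 22 genes were present with PEG in line 2 only and 28 in wild type only. These genes were chosen by the PEG values, so their PEG levels are a description. Those of line 2 had a median level of 11.1 TPM and reached 77.6 TPM, 15 of them were listed at 0 in every wild type PEG library, and 16 lay in the A subgenome against 5 in the C subgenome. Those of wild type had a median of 13.4 TPM and reached 83.7 TPM. Of these, 19 lay in the A subgenome, 10 of them on A01, and 9 in the C subgenome. Of the 41796 tested genes, 18822 lay in the A subgenome, 1859 of them on A01, and 22370 in the C subgenome.

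In the untreated libraries, which the rule did not use, the sets lay on the same sides by their medians, though not gene by gene. The median level of the 22 genes was 0 in wild type and 6.35 to 7.90 TPM in line 2. For the 28 genes it was 7.70 to 8.22 TPM in wild type and 0 in line 2. Of the 22 genes present in line 2, 20 were under 0.5 TPM in all untreated wild type libraries and 11 met the whole rule there. Of the 28 genes present in wild type, 26 were under 0.5 TPM in all untreated line 2 libraries and 16 met the whole rule. A level under 0.5 TPM in a genotype does not by itself show that the other was higher: BnaA03G0111500ZS was listed at 0 in both. Line 1 with PEG had 18 of the 22 at 5 TPM or more in all libraries and 26 of the 28 under 0.5 TPM. In the libraries labelled wild type with ABA, the median level of the 22 genes was 0 in replicate 1, 3.29 TPM in replicate 2 and 2.91 TPM in replicate 3, and it was 5.30 to 7.18 TPM in those of line 2.

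The called genes were spread over all chromosomes but not evenly. In the A subgenome 13.1% of 18822 tested genes were called and 4.26% were called and at least 2-fold different, in the C subgenome 10.6% and 2.78% of 22370. Chromosome A04 had the highest share, 22.7%, with 130 genes higher and 165 lower in line 2. On A01 (17.1%) lower genes prevailed, with 184 against 134 higher, and on A02 (15.7%) higher genes prevailed, with 183 against 84 lower. The lowest shares, 9.22% on C09, 9.24% on C03 and 9.30% on A09, were a little under that of all genes. These shares are descriptions, since neighbouring genes are not independent.

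**Figure D2:**
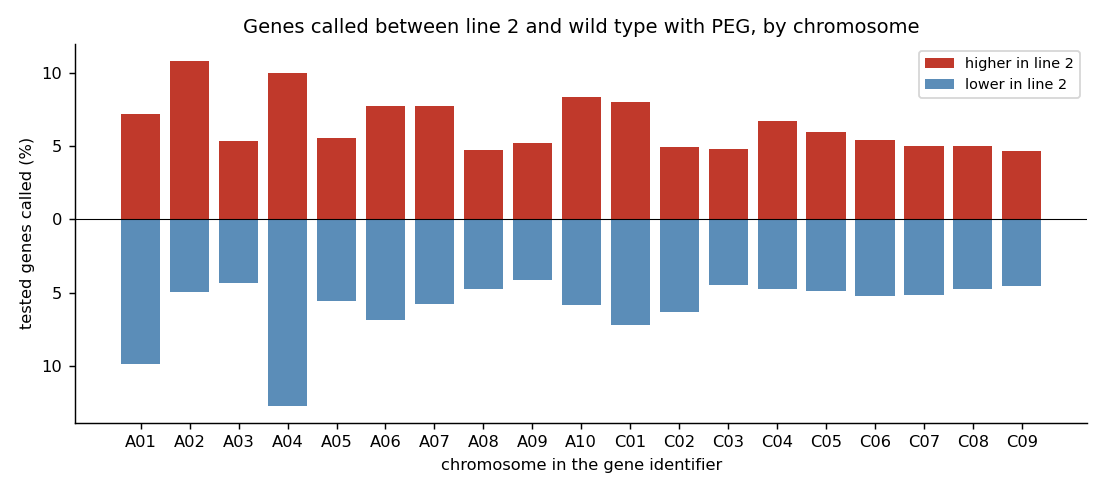
Share of tested genes (%) called higher in line 2 with PEG (bars upward) and called lower (bars downward) on each of the 19 chromosomes; both directions start at 0. A04 reaches 12.7% lower, A02 10.8% higher, and A01 9.90% lower.

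Some of the calls lay in runs of neighbouring genes that moved the same way. Runs were defined in the untreated libraries, which share no library with the PEG comparison: windows of 15 consecutive tested genes in which at least 8 were called in a common direction by at least 1.5-fold, merged where they overlapped. This gave 13 runs with 288 tested genes. With PEG, 194 of these genes (67.4%) were called, against 11.8% of all tested genes, 185 in the direction of their run and 9 against it. They held 75 of the 295 calls on A04 (25.4%), 54 of the 267 on A02 (20.2%) and 24 of the 318 on A01 (7.55%). In the test of whether the difference itself changed with PEG, 13 of the 288 genes (4.51%) were called, beside 1.57% of all tested genes. That test subtracts the untreated difference by which the runs were chosen, so this share is not independent of the choice and is a description.

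Among the 13 runs, the highest ratio of summed levels was that of a run on A02 between running numbers 3697 and 3786. Its summed level was 226, 221 and 245 TPM in wild type with PEG and 782, 744 and 604 TPM in line 2, a mean of 231 ± 13.1 against 710 ± 94.0 TPM (SD, n = 3 each) and a ratio of 3.08. A second run on A02, from 4058 to 4127, summed to 664, 622 and 623 TPM in wild type and 1110, 1181 and 1014 TPM in line 2. Of their 37 tested genes each, 26 were called higher with PEG in either run.

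Chromosome A04 held 6 runs, the first 5 in order along it lower and the last higher in line 2. From 379 to 415 the sum was 867, 904 and 843 TPM in wild type against 596, 583 and 599 TPM in line 2. From 522 to 543 it was 120, 142 and 140 TPM against 39.7, 44.3 and 37.8 TPM, the lowest ratio among the 13 runs at 0.30. From 647 to 701 it was 462, 474 and 474 TPM against 172, 165 and 159 TPM. From 779 to 880 the order turned, with 409, 457 and 396 TPM in wild type and 1019, 1025 and 1051 TPM in line 2. The A04 runs thus passed from lower to higher along the chromosome.

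The other runs were 2 on A01, both lower in line 2 (3080 to 3100 and 3734 to 3773, ratios 0.40 and 0.67), and 1 each on A06, A07 and A10, all higher. The A06 run, from 2925 to 2945, summed to 206, 212 and 230 TPM in wild type and to 483, 482 and 482 TPM in line 2. The A07 run, from 2954 to 2986, had a ratio of 2.11, and the A10 run, from 1893 to 1916, a ratio of 2.47 with PEG and 1.26 without. In all 13 runs the summed levels of the genotypes with PEG did not overlap, and 25.2% of single tested genes did not overlap either. The runs were chosen for a difference between these genotypes without PEG, and windows of other genes were not summed. Line 1 with PEG lay on the side of line 2 in each run.

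**Figure D3:**
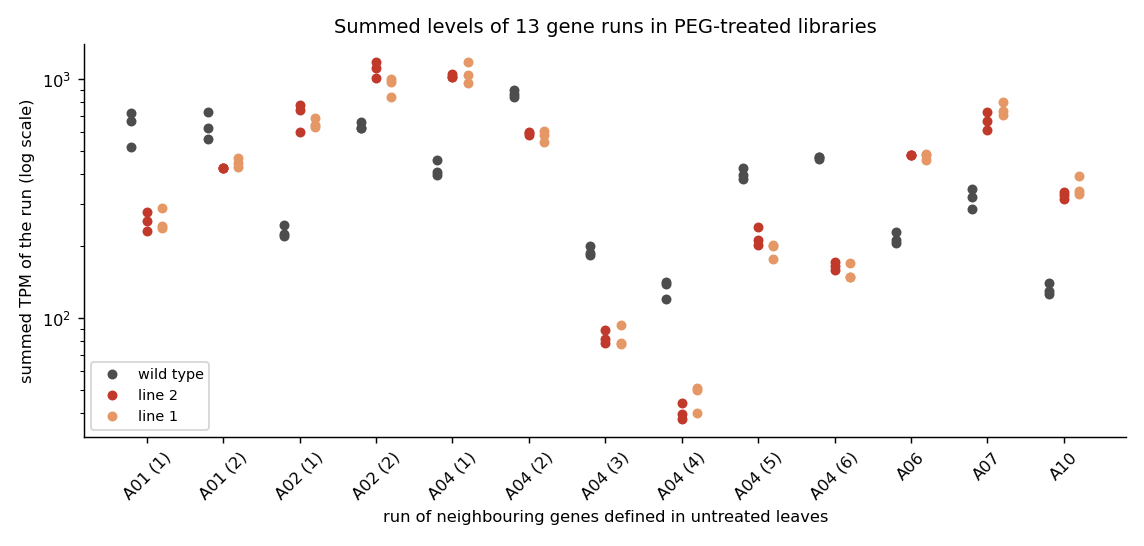
Summed TPM (log scale) of each of the 13 runs defined in untreated leaves, in every PEG-treated library of wild type, line 2 and line 1; each point is a library, and runs of a chromosome are numbered. The wild type points lie apart from those of line 2 in all 13 runs, as in the first A02 run with 221 to 245 TPM in wild type and 604 to 782 TPM in line 2.

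Applied to the PEG libraries themselves, the same search gave 18 runs. Of these, only the run on A05 between 2287 and 2899 had a median untreated difference near 0 (0.07 on the log2 scale). Its 15 tested genes, 9 of them called lower, had a median of -1.24 with PEG. Their sum was 479, 274 and 322 TPM in wild type and 143, 106 and 200 TPM in line 2. The run was chosen by these PEG values, so they are a description. In line 1 with PEG 0 of its genes were called lower, and the median difference from wild type was -0.50. The line 1 sums, at 377, 247 and 155 TPM, overlapped those of wild type. The runs of either definition held 430 tested genes and 286 calls, 5.80% of all calls. Outside them 4644 of 41366 genes (11.2%) were called, so nearly all called genes lay elsewhere.

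The difference between line 2 and wild type existed in part without PEG. In untreated leaves 3249 of the same 41796 genes (7.77%) were called, 2289 higher and 960 lower in line 2. The untreated count was 1860 without untreated line 2 replicate 2 and 1487 in a fit of these groups alone. Of the 2572 genes higher with PEG, 849 (33.0%) were also higher without it and 10 were lower. Of the 2358 genes lower with PEG, 515 (21.8%) were also lower without it and 18 were higher. Conversely, 1364 of the 3249 untreated calls (42.0%) were called in the same direction with PEG. The sign of the untreated difference was the same in 79.0% of the genes called with PEG and in 61.1% of all tested genes. After quantile normalization the untreated calls were less one-sided, 58.0% higher in place of 70.5%. Across the 41796 genes the differences in both conditions correlated at 0.57 (Pearson; Spearman 0.33), a description over genes, which are not independent.

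**Figure D4:**
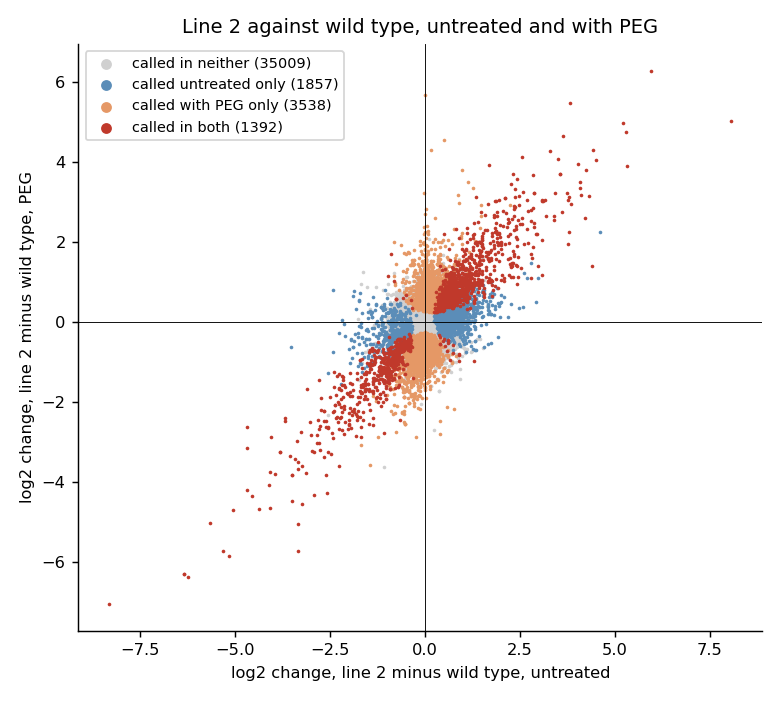
Log2 difference between line 2 and wild type without treatment (x axis) and with PEG (y axis) for each of 41796 tested genes, coloured by the condition in which it was called. Of the 1392 genes called in both conditions, 1364 have the same sign in both and lie at the lower left or the upper right, and 28 have opposite signs.

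A separate test asked whether the difference between line 2 and wild type changed with PEG (the interaction of genotype and treatment). It called 656 genes, 1.57% of those tested: 280 with a more positive and 376 with a more negative difference under PEG. After quantile normalization 55.5% of the calls were positive in place of 42.7%, so the balance of directions depends on scaling. Among the 280, 204 were called with PEG only and had, over the whole set, a median difference of 0.91 with PEG and -0.18 without. Among the 376, 179 were called with PEG only and 136 without PEG only, with medians of -0.54 and 0.44. For a gene called in a single condition, only this test bears on whether the conditions differ. The count moved with single libraries, from 297 without line 2 PEG replicate 1 to 1702 without wild type PEG replicate 3. It was 399 without line 2 PEG replicate 2 or wild type PEG replicate 2, and 323 to 432 without untreated line 2 replicate 2 or untreated wild type replicates 1 or 2. A fit without the ABA libraries called 344 and a fit of the 4 groups alone 188.

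BnaA03G0111500ZS, described above, had the largest positive interaction (adjusted p = 2.48e-10). BnaA06G0278000ZS followed: it was listed at 0 in all wild type libraries with and without PEG, at 19.4, 20.4 and 16.9 TPM in line 2 with PEG, and at no more than 0.309 TPM in untreated line 2 (adjusted p = 4.89e-09). Line 1 held it at 18.7, 16.7 and 15.1 TPM with PEG. Both genes were thus abundant with PEG in the lines, near 0 in untreated leaves and at 0 in wild type.

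In the negative direction, BnaC09G0253600ZS stood at 15.4, 8.88 and 12.2 TPM in wild type and 32.2, 30.0 and 36.9 TPM in line 2 with PEG. Without treatment wild type had 2.15, 0.502 and 1.24 TPM and line 2 had 59.6, 55.0 and 28.7 TPM, so the genotypes came closer with PEG (interaction -3.01, SE 0.48, adjusted p = 0.00215). BnaA08G0109000ZS stood at 0 in untreated wild type, at 40.7, 6.09 and 34.3 TPM in wild type with PEG, and at 0.654, 3.63 and 3.11 TPM in line 2 with PEG. Its interaction of -3.21 (SE 0.72) had an adjusted p of 0.0248 and lost the call under 5 alternatives. The adjusted p was 0.0859 without line 2 PEG replicate 1, 0.0698 without wild type PEG replicate 1, 0.0552 without untreated wild type replicate 2, 0.0733 with a pseudocount of 0.1 and 0.113 in a fit of the groups compared alone.

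Whether line 2 differed more in genes that respond to PEG was described with lists from other libraries. In the wild type of the knockout experiment PEG changed 25633 of 42926 genes (59.7%) and ABA 21185 (49.4%), and genes changed at least 2-fold formed the lists. Of 4133 genes raised by PEG there, 3900 were tested here, and 786 (20.2%) were called between line 2 and wild type. They were mostly higher in line 2: 657 higher and 129 lower, with a median difference of 0.19 over the list, beside 0.02 over all genes. Of 4939 genes lowered by PEG, 3343 were tested and 776 (23.2%) were called, 601 lower and 175 higher, with a median of -0.22. Of 29316 genes in neither list, 9.40% were called.

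Among PEG-raised genes, those also raised by ABA had the larger share of calls. Of 1515 tested genes raised by both treatments, 399 (26.3%) were called, 349 of them higher, and the median was 0.28. Of 1284 genes raised by PEG and not called for ABA, 183 (14.3%) were called, 145 of them higher, and the median was 0.13. Genes raised by both also rose more with PEG in wild type itself. Their median rise from untreated wild type was 2.20, 1.92 and 2.49 in replicates 1, 2 and 3, against 1.12, 0.97 and 1.34 for those not called for ABA. The part of this in the shares of calls was not tested. Of 1573 genes lowered by both, 378 (24.0%) were called, 289 of them lower, and the median was -0.23. Without treatment the medians of the PEG-raised and PEG-lowered lists between line 2 and wild type were 0.17 and -0.10.

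The medians of the lists were small beside the response itself and moved with the wild type libraries used. Measured from the mean of untreated wild type, the PEG-raised list had a median rise of 1.45, 1.29 and 1.71 on the log2 scale in wild type replicates 1, 2 and 3, and of 1.68, 1.67 and 1.72 in line 2. The PEG-lowered list had medians of -1.01, -0.76 and -1.18 in wild type and of -1.19, -1.14 and -1.29 in line 2. In line 1 the medians were 1.80, 1.79 and 1.62 for the raised list and -1.38, -1.44 and -1.01 for the lowered list. Wild type replicate 3 thus lay within the range of line 2, and wild type replicates 1 and 2 lay on the side of a smaller change. Line 1 replicate 3 also had a smaller change from untreated wild type than the line 2 libraries in both lists. For the lines, these values include any difference from wild type that existed without PEG. In line 2 the medians of that untreated difference were 0.17 for the raised list and -0.10 for the lowered list. The part of the difference between wild type libraries in the calls was not tested.

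Without wild type replicate 3 the list medians became 0.29 and -0.30, with 1115 genes of the raised list called higher and 988 of the lowered list called lower. Without wild type replicate 2 they became 0.10 and -0.14, with 342 and 237 genes. The raised list had 434 genes called higher without line 2 replicate 1. The lowered list had 326 called lower without line 2 replicate 1, 364 without line 2 replicate 3 and 371 without wild type replicate 1. The fit of 6 libraries called 261 and 139, and the fit without the ABA libraries 501 and 367. Among the core of 2219 genes, the raised list had 306 higher and 79 lower genes, and the lowered list 205 lower and 100 higher.

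**Figure D5:**
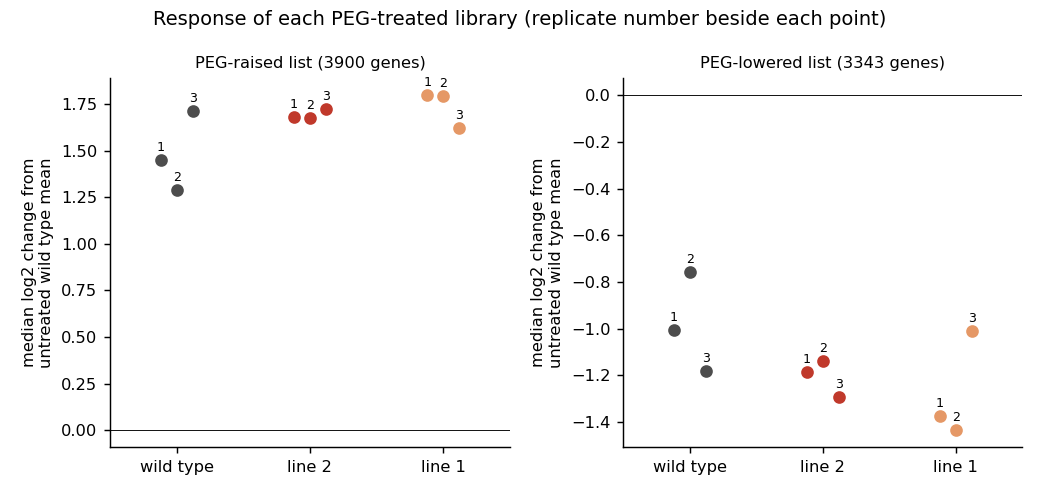
Median log2 change of the PEG-raised list (3900 tested genes, left) and the PEG-lowered list (3343, right) from the mean of untreated wild type in each PEG-treated library; each point is a library with its replicate number. Line 2 lies at 1.67 to 1.72 and -1.14 to -1.29, wild type replicate 3 at 1.71 and -1.18, and wild type replicates 1 and 2 nearer to 0. Line 1 spans 1.62 to 1.80 and -1.01 to -1.44.

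Among genes of the raised list, BnaC08G0225800ZS differed strongly: it stood at 11.5, 4.23 and 24.1 TPM in wild type with PEG and at 249, 122 and 187 TPM in line 2 (log2 difference 3.93, SE 0.47, adjusted p = 3.18e-06). Untreated levels were 0.765 to 2.72 TPM in wild type and 5.87 to 10.2 TPM in line 2, so the levels were higher with PEG in both genotypes. Its interaction missed the threshold (2.22, adjusted p = 0.096). BnaA02G0412100ZS, which lies in a run on A02, had 2.81, 1.47 and 5.28 TPM in wild type and 76.3, 86.9 and 116 TPM in line 2 with PEG (adjusted p = 1.01e-07). At no more than 2.08 TPM in untreated leaves of either genotype, it was called in the interaction (4.07, adjusted p = 0.00137).

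Against the direction of its list, BnaA10G0189100ZS had 72.4, 87.2 and 73.4 TPM in wild type with PEG and 0.560, 0 and 1.08 TPM in line 2 (-5.73, adjusted p = 1.46e-15). BnaA04G0023300ZS, described above, belonged to the raised list as well. In the untreated wild type of the knockout experiment, from which the list was made, the replicates of these genes were uneven. BnaA10G0189100ZS stood there at 11.0, 17.2 and 0 and BnaA04G0023300ZS at 66.2, 93.3 and 0. In the lowered list, BnaA04G0100700ZS had 604, 517 and 318 TPM in wild type and 50.1, 51.6 and 38.0 TPM in line 2 with PEG (-3.30, adjusted p = 8.17e-08). Without treatment it stood at 2318, 2099 and 2598 TPM against 456, 384 and 419 TPM, so line 2 was the lower genotype in both conditions.

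BnaA10G0172500ZS had 501 to 569 TPM in untreated wild type and 18.1, 25.6 and 3.88 TPM in wild type with PEG, where line 2 had 0.476, 1.02 and 0.0836 TPM (-3.20, adjusted p = 5.79e-05). Untreated line 2 had 79.8, 50.7 and 114.5 TPM, so line 2 was lower without PEG too (-2.76), and the interaction missed the threshold (-0.43, adjusted p = 0.83). Higher in line 2 although of the lowered list was BnaA02G0409800ZS, listed at 0 in all wild type PEG libraries and at 42.5, 52.5 and 37.7 TPM in line 2 (adjusted p = 1.01e-07). BnaA10G0187900ZS, described above, was the other such gene named here. Their place in the list rests on the untreated wild type of the knockout experiment. There BnaA02G0409800ZS stood at 10.5, 7.12 and 14.4 and BnaA10G0187900ZS at 3.17, 3.03 and 6.74. In the untreated wild type of the overexpression experiment both were listed at 0, so no lowering by PEG was seen there.

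Line 1 was compared with the same 3 wild type PEG libraries, so its values are set beside those of line 2 and not counted as independent. It had 6312 calls (15.1%), 3099 higher and 3213 lower. That count was 2553 without line 1 replicate 2, 2830 without wild type replicate 2, 10205 without wild type replicate 3, 4161 without the ABA libraries and 1130 in a fit of these groups alone. Over the 4930 genes called in line 2 the median size of the difference was 0.73 on the log2 scale in line 2 and 0.62 in line 1. These genes were chosen by their difference in line 2, so these medians do not show which line differed more. The lines were then compared directly with PEG, which called 83 genes (0.199%), 67 higher and 16 lower in line 2, while 4936 genes had an unadjusted p under 0.05. The count was 2 in a fit of the PEG libraries of the lines alone and 12 without the ABA libraries, and it ranged from 24 without line 2 replicate 2 to 308 without line 1 replicate 1. It was 25 and 189 without line 2 replicates 1 and 3, and 39 and 225 without line 1 replicates 2 and 3.

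BnaA07G0110600ZS was higher in line 2 than in line 1, with 10.2, 13.2 and 13.2 TPM against 1.24, 0.635 and 1.14 TPM (2.72, SE 0.37, adjusted p = 0.00223), and wild type with 1.01, 1.20 and 0 TPM was on the side of line 1. BnaA05G0357600ZS had 3.96, 5.62 and 6.90 TPM in line 2, 0.520, 0.414 and 0 TPM in line 1, and 0 in wild type (adjusted p = 0.0167). Lower in line 2 were BnaA08G0009900ZS, with 1.56, 0 and 1.44 TPM against 8.26 to 15 TPM in line 1 (-2.83, adjusted p = 0.00442), and BnaA10G0240900ZS, with 0, 0 and 1.02 TPM against 5.71, 12.1 and 4.4 TPM (-2.62, adjusted p = 0.00106). The last 3 genes lost the call in the fit of the lines' PEG libraries alone (adjusted p = 0.19, 0.45 and 0.49). With a pseudocount of 0.1 the adjusted p was 0.15 for BnaA05G0357600ZS and 0.075 for BnaA08G0009900ZS, and that of BnaA05G0357600ZS was 0.0947 without line 2 replicate 2 and 0.0563 without line 1 replicate 2.

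The knockout was compared with its own wild type with PEG, in libraries that the line 2 comparison does not share and on the authors' normalized values of that experiment. It called 570 of 42926 genes (1.33%), and 310 in a fit of its PEG groups alone. Both experiments tested 36559 of the genes, of which 4317 were called in line 2 and 409 in the knockout, and 155 were called in both. These were 3.59% of the line 2 calls, beside 1.12% of all 36559 called in the knockout, and 37.9% of the knockout calls, beside 11.8% called in line 2.

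Most of the 155 genes moved the same way in line 2 and in the knockout: 78 were higher in both and 50 lower in both, while 27 moved in opposite directions. Of the 128 with a common direction, 93 (72.7%) were also called that way in untreated line 2, beside 26.8% of the 4317 line 2 calls. The 128 also had larger differences in line 2 with PEG, with a median size of 1.67 on the log2 scale, beside 0.73 over all 4930 line 2 calls. The part of this size in the share was not tested. Chromosome A06 held 23 of the 128 (17.97%), beside 4.84% of the 36559 genes tested in both, A07 held 22 (17.2%, beside 4.35%) and A01 held 14 (10.9%, beside 4.69%). Across the 36559 genes the differences hardly correlated (Pearson r = 0.016, Spearman rho = -0.095, a description over genes). BnaA06G0278000ZS, at 0 in wild type and at 16.9 to 20.4 TPM in line 2 with PEG, was among those higher in both: the knockout experiment listed 0.0423, 0.0358 and 0 in wild type and 10.2, 10.5 and 7.62 in the knockout (adjusted p = 2.90e-09).

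Among the 27 opposite genes, BnaA07G0296000ZS, in the A07 run, rose from 26.6, 16.6 and 22.9 TPM in wild type to between 93.3 and 101.2 TPM in line 2 (2.13, adjusted p = 3.62e-06). In the knockout experiment it fell from 109, 112 and 91.7 in wild type to 21.9, 27.2 and 27.2 in the knockout (-1.99, adjusted p = 2.13e-04). BnaA01G0222800ZS went the other way, with 9.75, 18.1 and 5.29 TPM in wild type against 0, 0.481 and 0 TPM in line 2 (-3.26), and 11.0, 13.5 and 9.80 in wild type against 45.8, 51.9 and 31.5 in the knockout (1.81). Both genes were apart in line 2 without PEG as well, with 15.2 to 27.5 against 94.1 to 141 TPM for the first and 8.26 to 23.7 against at most 0.425 TPM for the second.

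BnaA05G0077100ZS was the opposite gene whose difference in line 2 arose with PEG: 11.6, 4.03 and 13.5 TPM in wild type and 42.6, 31.1 and 39.2 TPM in line 2, after no more than 0.593 TPM in either genotype untreated (interaction 2.04, adjusted p = 0.00398). The knockout held 7.63, 8.56 and 2.34 against 11.5, 25.3 and 28.8 in its wild type (-1.72, adjusted p = 0.0139). The knockout call was lost without replicate 2 or replicate 3 of that wild type (adjusted p = 0.0897 and 0.0983), in a fit of the PEG groups alone (0.319), with a pseudocount of 0.1 (0.0686) and without the ABA libraries (0.0677). BnaC05G0288400ZS had 9.62, 10.8 and 8.83 TPM in wild type and 3.71, 0.563 and 2.93 TPM in line 2 (-1.80, adjusted p = 0.00588), against 0.864, 0.560 and 2.41 in wild type and 13.9, 31.1 and 14.1 in the knockout (3.17). Its call in line 2 was at the threshold without line 2 replicate 2 (adjusted p = 0.0508).

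The values of the overexpression experiment are given per transcript, so shifts between the transcripts of a gene were tested too. In 1646 genes with at least 2 transcripts and a mean of at least 5 TPM in both PEG groups, the ratio of the most abundant transcript to the sum of the others was called different in 52 (3.16%), of which 15 were not called for their total level. The share of that transcript differed by 20 percentage points or more in 14 of the 52. Without line 2 replicate 1 the count was 30, without wild type replicate 3 it was 88, and in the fit of 6 libraries it was 7.

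The clearest case was BnaA04G0076900ZS, whose total level did not pass the test (log2 difference 0.05, adjusted p = 0.82). Its first listed transcript made up 5.75%, 4.75% and 5.46% of the gene in wild type and 100%, 99.4% and 99.3% in line 2 with PEG (log2 change of the ratio 9.02, SE 0.27, adjusted p = 6.50e-15). The estimated level of this gene thus fell on different transcripts in the genotypes. Whether the plants held different transcripts was not tested, since no reads were examined. In BnaA01G0324400ZS the first transcript was 99.8%, 100% and 100% of the gene in wild type and 55.6%, 49.8% and 45.2% in line 2 (-6.98, SE 0.42, adjusted p = 6.64e-10). Here the other transcript appeared, at 107, 137 and 123 TPM in line 2 and no more than 0.314 TPM in wild type, while the first stood at 128 to 151 TPM in wild type and at 133, 136 and 101.4 TPM in line 2. It was present without PEG in line 2 as well, at 61.4, 29.5 and 61.5 TPM.

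In BnaA01G0424300ZS the first transcript fell from 31.4, 31.4 and 43.6 TPM in wild type to 9.94, 9.80 and 9.40 TPM in line 2, and its share from 98.4% or more to 60.4%, 51.9% and 51.6% (-4.56, adjusted p = 4.47e-06). In BnaA01G0368500ZS a transcript listed at 0 in wild type made up 61.8%, 29.1% and 72.9% of the gene in line 2 (adjusted p = 4.25e-05), a call lost in the fit of 6 libraries (adjusted p = 0.16). Several of the gene's other transcripts have identical values in the table.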

How the data were processed

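The authors deposited the overexpression experiment as TPM per transcript, as read from the values, since each library sums to the same total over 107233 transcripts; these were summed to genes here. For the knockout experiment the authors deposited a normalized signal for 78057 genes, whose exact unit is unstated. Per the submitters' processing notes, the tools were kallisto 0.51.1, sleuth 0.30.1, HISAT2 and DESeq2 1.38.3, in unknown roles. No genome build is given in the sources used here, and 0 of 123214 reference genes matched the identifiers.

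Values were tested as log2(value + 1) with limma 3.58.1 in R 4.3.3 (the package data.table, version 1.17.8, read the files). Each experiment had a single linear model over its groups, with empirical Bayes moderation along a mean trend, no replicate block, and Benjamini-Hochberg adjustment over all genes tested. Genes of the knockout experiment needed a value of 1 in 3 of its 18 libraries. The experiments were tested separately, and the script was tested on simulated data. Fold changes on this scale understate low genes, and depend on the added 1 where a group is at 0. Genes named are at most 2 per direction and comparison: the largest called changes of at least 2-fold whose higher group averages 5 or more and whose replicates do not overlap, for the main comparison outside the runs. Runs, lists and members were chosen with earlier results of these data known. The planned lists of named stress, growth and cell type genes were not used, since no names could be paired. Another pseudocount, filters, quantile normalization, the replicate block, other sets of libraries and left-out replicates were tried.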

Additional observations from a re-analysis of the deposited data

Results flagged for a closer look

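These results stand here because an effect was tested to differ between conditions or between lines; groups of 3 libraries are too small for a test of single outlying values. The difference between line 2 and wild type changed with PEG in 656 genes. The fitted interactions of the genes named for it were 5.68 for BnaA03G0111500ZS, 4.15 for BnaA06G0278000ZS, -3.21 for BnaA08G0109000ZS and -3.01 for BnaC09G0253600ZS. The first 2 genes were listed at 0 in wild type with and without PEG, so that the size depends on the pseudocount. Lines 2 and 1 differed with PEG in 83 genes. Among these, BnaA07G0110600ZS (2.72) and BnaA05G0357600ZS (2.30) were higher in line 2, and BnaA08G0009900ZS (-2.83) and BnaA10G0240900ZS (-2.62) were lower, as log2 differences.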

How the results depend on the processing

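No named gene changed direction: of 422 alternative values of 30 results on named genes, 403 kept their side of the threshold and 19 lost the call. These genes were chosen as large called changes without overlap in the same data, so this is no independent check. Where groups do not overlap, leaving out a replicate cannot change the direction. For the counts of calls, the cause of each shift below was not tested, except that settings with fewer libraries or genes tested less. Leaving out each replicate gave 2951 to 7514 calls between line 2 and wild type with PEG, 342 to 1115 higher genes of the PEG-raised list, 237 to 988 lower genes of the PEG-lowered list, 1860 to 3530 untreated calls, 297 to 1702 interactions, 2553 to 10205 calls in line 1, 24 to 308 between the lines and 30 to 88 in transcript balance. With only the groups compared, these 8 counts were 1939, 261, 139, 1487, 188, 1130, 2 and 7, and the knockout had 310. Without the ABA libraries, an alternative chosen after seeing the data, the lowered list had 367, the interaction 344, line 1 4161 and the lines 12. The stricter filter gave 383 for the lowered list, 39 between the lines and 297 in the knockout, no filter gave 178 between the lines, and pseudocount 0.1 gave 52 there and 27 in transcript balance, where a mean of at least 10 gave 30. Windows with 10 called genes gave 7 runs, and a limit of 0.1 TPM gave 30 genes present in a single genotype. Replicate numbers did not pair the samples (same-numbered deviations of wild type and line 2 with PEG correlated at 0.017, 0.138 and 0.055, and not every library correlated best with its own number). A fit with the replicate block called 4490 genes with PEG, 605 and 527 in the lists, 2963 untreated, 506 in the interaction and 43 in transcript balance. Depth is unknown, so low levels have no counting interval.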
